A study of Mus musculus with 9 samples.

Results

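The genes of the major histocompatibility complex (MHC, called H2 in the mouse) and of antigen presentation were followed in brown adipose tissue of mice held at room temperature or in the cold. Members were every gene whose symbol begins with H2-, together with B2m, Tap1, Tap2, Tapbp, Psmb8, Psmb9, Psmb10, Ciita, Nlrc5 and Cd74. Of the 16937 genes listed in any of the 3 deposited comparisons, 38 were members, 28 by symbol and 10 by name. They comprise 18 class I heavy chain genes, 7 class I assembly and processing genes, 2 transactivators and 10 class II genes, and H2-Ke6, which encodes a steroid dehydrogenase and is no MHC molecule. All 3 comparisons list 36 of them; H2-Eb2 is in 1 and H2-M2 in another. RNA was sequenced from 9 samples of brown adipose tissue, 3 from wild-type mice exposed to 4°C for 8 h (WT Cold), 3 from whole-body Gcn2 knockout mice (Gcn2-/-) exposed in the same way (GCN2 KO Cold) and 3 from wild-type mice held at 23°C (WT RT). All mice were adults of 12 to 23 wk on a C57Bl/6J background reached by 10 generations of crossing, and were housed singly at 23°C for 5 days beforehand. Both sexes were used, and the labels give no sex per library. There was no GCN2 KO group at room temperature, so the effect of the knockout at 23°C was not measured.

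Class I molecules are a polymorphic heavy chain bound to β2-microglobulin, the product of B2m, and carry peptides from the cytosol to the surface of most nucleated cells, where cytotoxic T cells read them. The peptides are cut by proteasomes, whose catalytic subunits are replaced by Psmb8, Psmb9 and Psmb10 in the immunoproteasome, pumped into the endoplasmic reticulum by the Tap1 and Tap2 transporter and loaded with the help of tapasin, the product of Tapbp. Class II molecules pair an alpha and a beta chain with the invariant chain Cd74 and present peptides from endosomes to helper T cells, mainly on macrophages, dendritic cells and B cells. Nlrc5 drives class I genes and Ciita drives class II genes, and both pathways are induced by interferon gamma.

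Reads on the listed genes ranged from 27058799 to 30768064 per library. The 3 libraries of each group are lettered A, B and C after the sorting of the authors' codes. WT RT codes begin with a different prefix from the cold ones, so whatever the prefix stands for, which the labels do not say, and cold cannot be told apart in any comparison with WT RT. The targeted gene, Eif2ak4, had 11.9, 12.7 and 11.8 counts per 1000000 reads (CPM) in libraries labelled GCN2 KO Cold, 6.46, 8.31 and 8.34 in WT Cold and 11.1, 12.6 and 13.0 in WT RT. It was therefore not lower in the libraries labelled GCN2 KO, and the tables hold 1 value over all exons of the gene, so the exons removed in the knockout were not analysed here. For that reason the group is named below by its label. The 10 markers of brown adipocytes, Ucp1 among them, summed to between 20095 and 31416 CPM in every library, so the labelled tissue was present.

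Promoter sequences are printed to show which sequence features members share, 33 of the 38 being on chromosome 17. RefSeq (GRCm38.p6) gave a window of 250 bases before the transcription start and 50 bases from it on for 27 of the 38 members. The 11 without a window were not searched: Ciita, H2-K2, Tap2, H2-Ab1, H2-Ea-ps, H2-Q1, H2-Q5, H2-T24, H2-T10, Cd74 and Nlrc5. Both strands were searched for 6 motifs. GGGATTCCC, the NF-kB type of sequence known from class I enhancers, was in 4 members (H2-K1, H2-D1, H2-Q6 and H2-Q7) and in 0.353% of all 32851 windows. GTTTCNCTT, of the interferon-stimulated response element type, was in 9 members, H2-K1, H2-D1, H2-Q4, H2-Q6, H2-Q7, H2-Q10, H2-T22, H2-M2 and H2-M3, and in 1.78% of all windows. GAAANNGAA, which overlaps it on the other strand in H2-T22, was in B2m, H2-T22 and H2-T23 and in 8.56% of all windows. CTGATTGG, the Y box known from class II promoters, was in 12 members and 4.1% of all windows. The short motifs TTCNNNGAA and TGACG were in 3 and 11 members and in 8.3% and 20.8% of all windows. These are matches of letters and were not tested as binding sites. In the 6 windows printed here, of a classical class I pair, a nonclassical class I gene, the shared light chain, a transporter and a class II chain, capitals mark GGGATTCCC, GTTTCNCTT, GAAANNGAA and CTGATTGG on either strand. The Tap1 window (chr17:34187306-34187605, plus strand) shares 275 bases with that of Psmb9, which is transcribed in the opposite direction. The others are H2-K1 (chr17:34000298-34000597, minus strand), H2-D1 (chr17:35262844-35263143, plus strand), H2-T22 (chr17:36042693-36042992, minus strand), B2m (chr2:122147437-122147736, plus strand) and H2-Eb1 (chr17:34305617-34305916, plus strand).
H2-K1: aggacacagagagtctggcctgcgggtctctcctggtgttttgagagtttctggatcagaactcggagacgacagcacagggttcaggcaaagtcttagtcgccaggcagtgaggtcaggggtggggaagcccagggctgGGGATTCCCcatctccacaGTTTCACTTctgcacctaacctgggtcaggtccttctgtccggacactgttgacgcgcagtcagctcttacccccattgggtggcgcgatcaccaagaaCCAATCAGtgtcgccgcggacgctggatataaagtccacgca
H2-D1: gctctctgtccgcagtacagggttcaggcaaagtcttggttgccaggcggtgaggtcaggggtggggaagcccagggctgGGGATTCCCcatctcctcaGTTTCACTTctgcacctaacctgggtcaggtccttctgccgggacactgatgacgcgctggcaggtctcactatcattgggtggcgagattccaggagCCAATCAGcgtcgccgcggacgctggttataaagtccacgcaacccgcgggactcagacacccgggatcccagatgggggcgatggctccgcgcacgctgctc
H2-T22: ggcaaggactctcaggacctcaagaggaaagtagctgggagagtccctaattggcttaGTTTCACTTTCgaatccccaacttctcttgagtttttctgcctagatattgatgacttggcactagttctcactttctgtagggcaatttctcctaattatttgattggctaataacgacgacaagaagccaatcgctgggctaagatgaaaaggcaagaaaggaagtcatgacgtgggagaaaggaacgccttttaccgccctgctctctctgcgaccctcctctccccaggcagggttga
B2m: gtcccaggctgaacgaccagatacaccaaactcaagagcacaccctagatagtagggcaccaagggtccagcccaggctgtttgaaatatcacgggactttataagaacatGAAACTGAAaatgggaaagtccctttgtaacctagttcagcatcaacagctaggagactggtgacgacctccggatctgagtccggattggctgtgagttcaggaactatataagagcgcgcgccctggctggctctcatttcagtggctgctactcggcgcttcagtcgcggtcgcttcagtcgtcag
Tap1: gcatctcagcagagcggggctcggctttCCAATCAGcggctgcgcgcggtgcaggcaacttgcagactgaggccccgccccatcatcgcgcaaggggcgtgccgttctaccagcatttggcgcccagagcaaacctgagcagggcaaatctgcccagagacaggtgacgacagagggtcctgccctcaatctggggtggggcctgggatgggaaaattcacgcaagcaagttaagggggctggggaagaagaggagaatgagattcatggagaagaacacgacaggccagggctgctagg
H2-Eb1: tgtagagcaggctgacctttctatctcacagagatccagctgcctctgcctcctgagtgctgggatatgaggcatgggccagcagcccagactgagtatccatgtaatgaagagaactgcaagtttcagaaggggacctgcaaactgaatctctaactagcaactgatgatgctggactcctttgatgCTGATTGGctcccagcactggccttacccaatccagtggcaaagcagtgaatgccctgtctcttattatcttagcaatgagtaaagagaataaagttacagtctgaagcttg
Of the marked motifs, the classical pair carries the NF-kB type, GTTTCNCTT and the reversed Y box in the same order. H2-T22 carries GTTTCNCTT and GAAANNGAA, B2m carries GAAANNGAA, and Tap1 and H2-Eb1 carry the Y box.

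Several class I genes are near copies of each other, and the authors counted reads that align to a single place. Of all stretches of 150 bases (the read length) in the transcripts of H2-T22, 22.3% also occur in another annotated gene, against 20.9% for H2-T10, 5.99% for H2-Q6, 5.9% for H2-Q7 and 0% for H2-K1, H2-K2 and H2-T-ps. For H2-T22 the other genes were an overlapping transcript, A930015D03Rik, with the most shared stretches, and H2-T10. For H2-T10 they were BC023719, whose exons overlap its own, with the most shared stretches, and H2-T22. The share common to H2-T10 and H2-T22 alone was not counted, so these percentages are upper limits for the pair. The library kit does not mark strand. Exon 3 of the H2-T22 transcript compared (chr17:36041868-36042128, minus strand, GRCm38, GENCODE M21) and exon 3 of H2-T10 (chr17:36120615-36120875, minus strand) are printed because the results below turn on this pair. Capitals mark the bases that differ.
H2-T22: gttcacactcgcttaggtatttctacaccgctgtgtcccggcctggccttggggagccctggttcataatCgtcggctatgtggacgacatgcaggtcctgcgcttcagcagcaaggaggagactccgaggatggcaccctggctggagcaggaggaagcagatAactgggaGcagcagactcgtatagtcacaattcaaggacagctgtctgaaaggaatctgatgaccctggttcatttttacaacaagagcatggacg
H2-T10: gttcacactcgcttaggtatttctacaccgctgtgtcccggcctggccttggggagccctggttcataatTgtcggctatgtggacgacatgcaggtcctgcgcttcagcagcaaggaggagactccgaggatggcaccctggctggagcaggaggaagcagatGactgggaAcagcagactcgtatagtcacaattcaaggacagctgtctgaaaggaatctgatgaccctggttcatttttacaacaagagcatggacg
They differ at 3 of 261 bases, an identity of 98.9%, and the longest stretch with no difference is 93 bases, shorter than a read. Exon 4 has 237 bases in H2-T22 and 248 in H2-T10, and exon 5 is 94.2% identical. H2-T10 is annotated as a polymorphic pseudogene, as are H2-Q5 and H2-Ea-ps, while H2-K2 and H2-T-ps are annotated as unprocessed pseudogenes.

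At room temperature the light chain B2m led, with 917 ± 129 CPM per kb of exon (SD, n = 3). The classical heavy chains H2-D1 (276 ± 37.2) and H2-K1 (185 ± 26.2) followed, then Cd74 (76.3 ± 14.6) and H2-Q10 (69.4 ± 4.58), which encodes a secreted class I molecule. The classical class II chains were lower, from 35.7 ± 4.49 CPM per kb for H2-Eb1 to 14.7 ± 3.06 for H2-Aa. Transactivator levels were low, with 2.07 ± 0.368 CPM per kb for Nlrc5 and 0.26 ± 0.101 for Ciita.

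Cold exposure of wild-type mice was examined first, in WT Cold vs WT RT. Of the class I heavy chain genes 11 of 17 were lower in the cold, as were all 7 assembly and processing genes and Nlrc5, by 1.57-fold to 5.33-fold, whereas 1 of 9 class II genes was called. Here a gene is called at an adjusted p under 0.05 from limma, on log2(value + 1) of the authors' normalized counts with Benjamini-Hochberg adjustment over all genes of the table, and levels are CPM. Where libraries of 2 groups are said not to overlap, the share of all genes that do so was not counted. An exact test of 3 against 3 libraries gives no p under 0.1, so lack of overlap alone is only a description. Of 36 members tested, 21 were called, 2 higher and 19 lower, against 27.7% of all 16679 genes tested, 13.6% of them higher and 14.1% lower. With an absolute log2 fold change over 1 as well, the threshold of the study, 11 remained, against 8.14% of all genes. The median log2 fold change was -0.72 over the members and 0.00 over all genes. Of all calls, 49.0% were higher with the authors' size factors and 35.1% with CPM scaling, which shifts the median of all genes by -0.08 log2; 22 members were called on that scale.

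**Figure D1:**
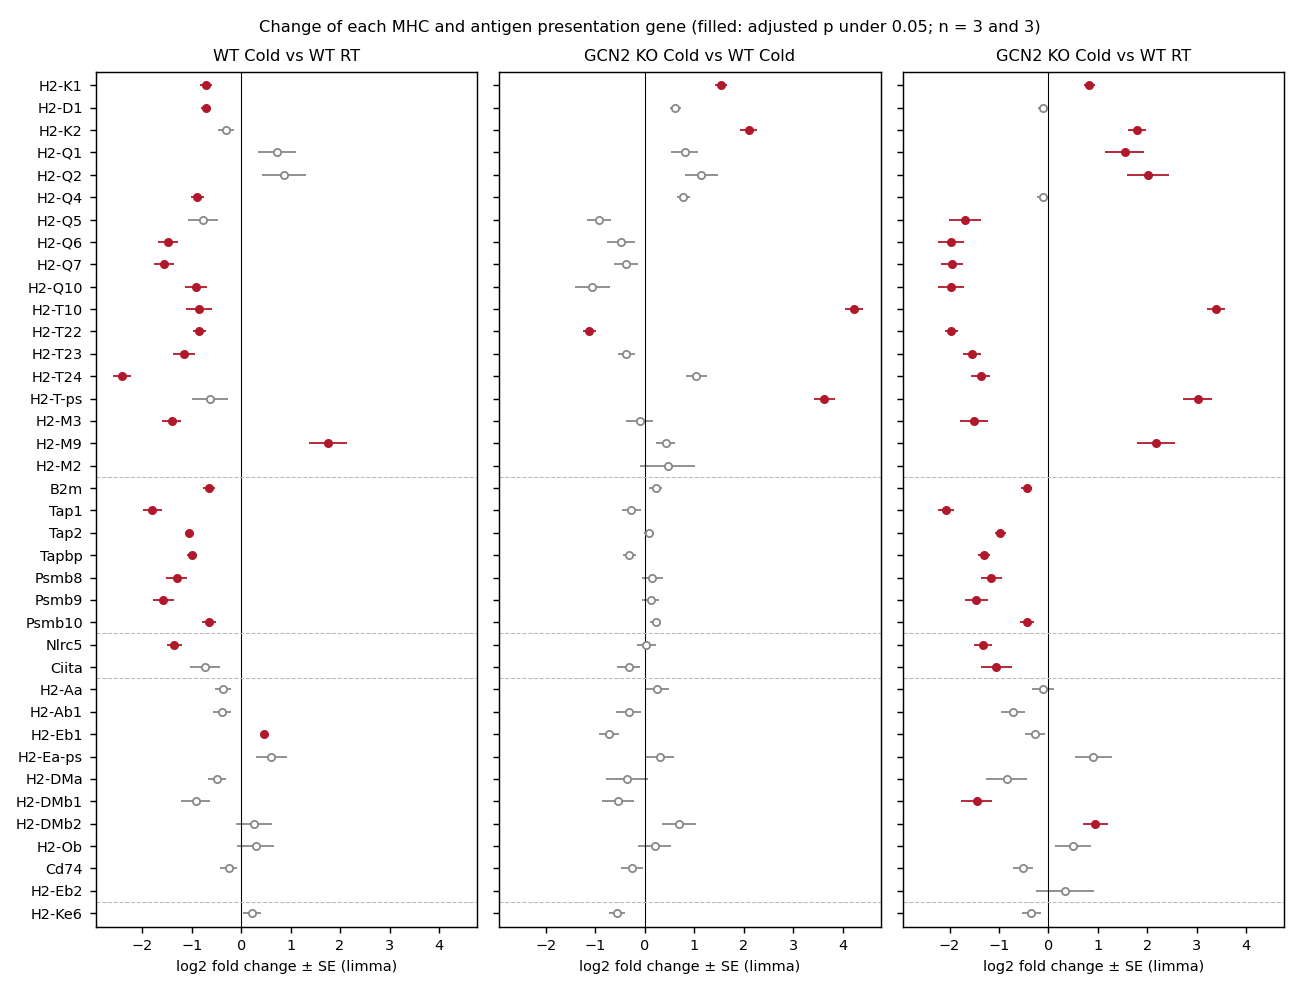
Log2 fold change with its standard error (x axis, limma) for each member (y axis, grouped by class with dashed lines between classes) in the 3 comparisons, with filled red points for adjusted p under 0.05. In WT Cold vs WT RT the called points lie left of 0 except H2-M9 and H2-Eb1, and in GCN2 KO Cold vs WT Cold the called points are H2-T10, H2-T-ps, H2-K2, H2-K1 and H2-T22.

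Of 17 class I heavy chain genes tested, 11 were lower in WT Cold, 1 was higher and 5 were not called. H2-K1, a classical heavy chain, had 564, 607 and 457 CPM in WT RT and 267, 321 and 348 in WT Cold (log2 fold change -0.71, SE 0.13, adjusted p = 0.00643, limma). H2-D1, the other classical chain, had 741, 792 and 606 CPM in WT RT and 375, 408 and 437 in WT Cold (log2 fold change -0.72, SE 0.10). Every WT Cold library was below every WT RT library for both. The largest fall was in H2-T24, a nonclassical gene, from 17, 21.8 and 14.4 CPM to 2.59, 3.34 and 3.33 (log2 fold change -2.41, SE 0.19, adjusted p = 0.000254, limma). H2-T23, which encodes Qa-1, the peptide receptor read by NK cell CD94/NKG2A, had 64.6, 87.9 and 47.4 CPM in WT RT and 23.9, 24.4 and 34.6 in WT Cold. H2-M3, which presents formylated bacterial peptides, had 6.93, 9.43 and 5.78 CPM in WT RT and 2.66, 2.4 and 2.60 in WT Cold. Both fell in the test, with log2 fold changes of -1.16 and -1.41.

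The H2-Q genes include H2-Q6 and H2-Q7, which encode Qa-2. H2-Q6 had 22.5, 34.0 and 27.1 CPM in WT RT and 7.70, 9.0 and 11.4 in WT Cold (log2 fold change -1.48, SE 0.20). H2-Q7 had 21.9, 33.4 and 25.0 CPM in WT RT and 6.98, 7.99 and 10.4 in WT Cold (log2 fold change -1.57, SE 0.20). Reads can move between these copies, and their sum went from 54.6 ± 11.7 CPM to 17.8 ± 3.62 (SD, n = 3) with no overlap between groups. H2-Q10 had 286, 295 and 324 CPM in WT RT and 127, 123 and 220.4 in WT Cold, with library C apart from the other two (log2 fold change -0.92, adjusted p = 0.021, limma). H2-Q10 lost its call when any library but WT Cold C was left out (adjusted p up to 0.0741, limma). H2-Q4 fell too (log2 fold change -0.89), while H2-Q1 and H2-Q2 had 0.73 and 0.87 with overlapping libraries and no call, and H2-Q5 had -0.77 (adjusted p = 0.0905, limma, and 0.0429, DESeq2). H2-K2 and H2-T-ps had -0.31 and -0.63 and no call. H2-T22 and H2-T10 each had a log2 fold change of -0.85. H2-T10, at 3.81, 4.55 and 2.63 CPM in WT RT and 1.83, 1.49 and 2.33 in WT Cold, was near the threshold (adjusted p = 0.0475, limma), and 4 of the 6 fits that left out a library lost the call (adjusted p up to 0.144). H2-M9 was the only heavy chain gene that rose, from 0.657, 0.52 and 1.38 CPM to 2.66, 2.57 and 2.47 (log2 fold change 1.75, SE 0.38). All 17 genes together summed to 1877, 2081 and 1654 CPM in WT RT and 909, 994 and 1159 in WT Cold.

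All 7 class I assembly and processing genes were called lower, against 14.1% of all genes, with a median log2 fold change of -1.06. Tap1 had 38.3, 49.9 and 31.1 CPM in WT RT and 10.8, 8.48 and 12.9 in WT Cold (log2 fold change -1.80, SE 0.20, adjusted p = 0.000916, limma). Tap2, its partner, had 51.3, 54.6 and 43.3 CPM in WT RT and 23.7, 21.5 and 22.1 in WT Cold (log2 fold change -1.06, SE 0.09). Tapbp had 144, 158 and 124 CPM in WT RT and 62.3, 66.9 and 71.5 in WT Cold (log2 fold change -1.0, SE 0.10). The groups did not overlap for these genes, nor for B2m, which had 792, 898 and 676 CPM in WT RT and 416, 465 and 527 in WT Cold (log2 fold change -0.66, SE 0.12, adjusted p = 0.00709, limma). Tap1 and Psmb9 overlap at their 5' ends, and 1.04% and 1.46% of their stretches of 150 bases are shared.

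**Figure D2:**
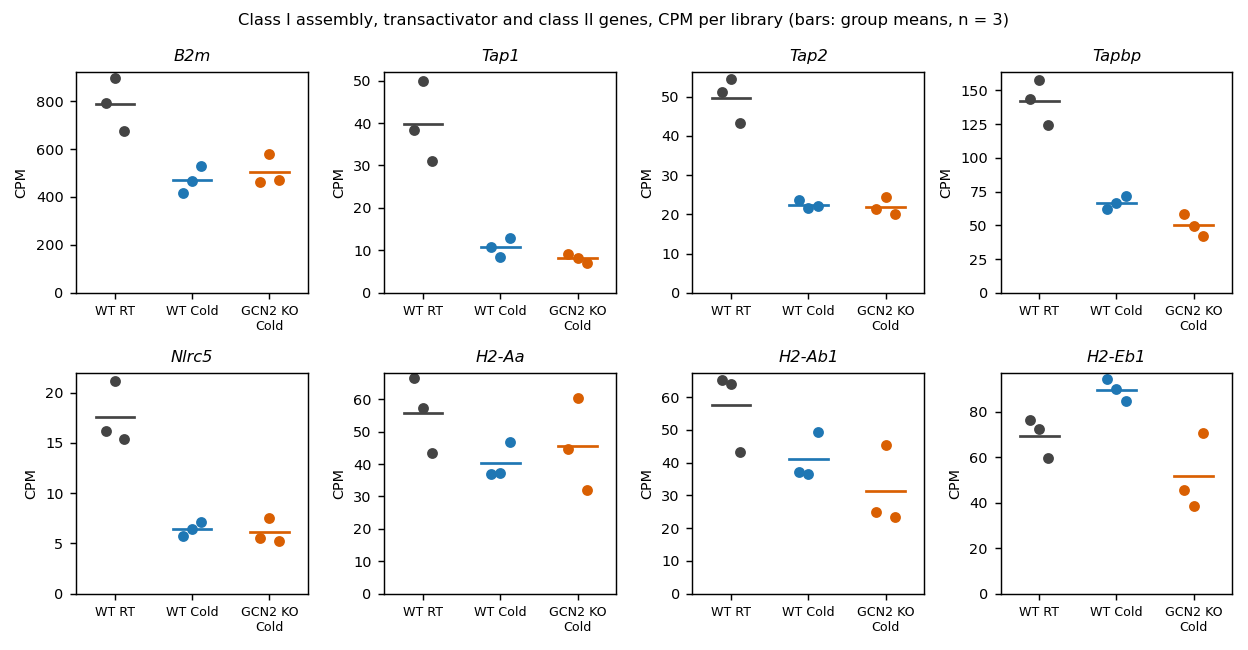
CPM per library (y axis, from 0) of 4 class I assembly genes, Nlrc5 and 3 class II chains in WT RT, WT Cold and GCN2 KO Cold (x axis), with bars at the group means (n = 3). B2m, Tap1, Tap2, Tapbp and Nlrc5 are lower in every cold library than in every WT RT library, while H2-Aa and H2-Ab1 overlap and H2-Eb1 is highest in WT Cold.

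The 3 immunoproteasome subunits fell. Psmb8 had 44.9, 57.9 and 31.9 CPM in WT RT and 13.8, 16.2 and 20.5 in WT Cold (log2 fold change -1.31, SE 0.22). Psmb9 had 25.3, 28.5 and 15.1 CPM in WT RT and 6.91, 6.60 and 7.43 in WT Cold (log2 fold change -1.58, SE 0.21). Psmb10 changed least, from 36.8, 45.3 and 29.5 CPM to 21.2, 21.2 and 23.5 (log2 fold change -0.65, SE 0.14). Of the constitutive subunits they replace, Psmb5, Psmb6 and Psmb7, Psmb7 rose (log2 fold change 0.30) and the other two were not called. Immunoproteasome reads were 20.0%, 21.6% and 14.3% of the reads of all 3 pairs in WT RT and 7.50%, 8.33% and 9.55% in WT Cold, and 8.36%, 9.83% and 7.03% in libraries labelled GCN2 KO Cold. The 2 cold groups overlapped, and neither reached the lowest WT RT library. No test was made on this share.

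**Figure D3:**
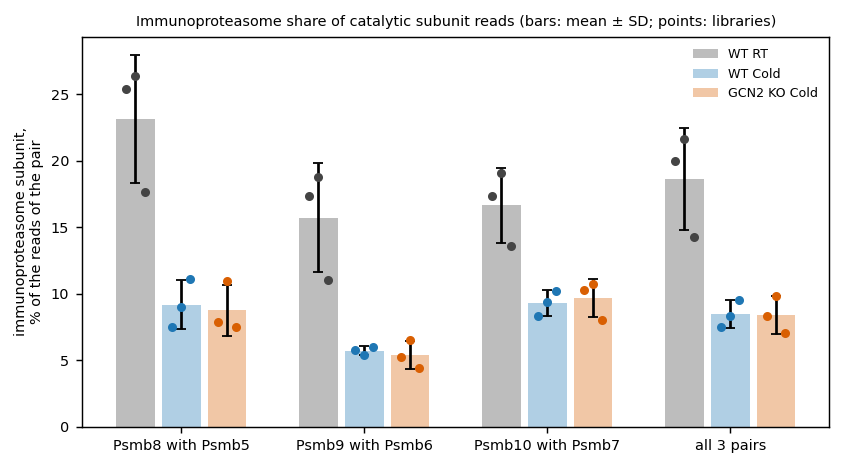
Share of reads from the immunoproteasome subunit (y axis, percent of the reads of the pair) for each pair of subunits and for all 3 together (x axis), with bars at the mean, error bars of 1 SD and points for libraries (n = 3). In each pair the cold libraries lie below all WT RT libraries, and the means over all pairs are 18.6%, 8.46% and 8.41%.

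Nlrc5 had 16.2, 21.2 and 15.4 CPM in WT RT and 5.73, 6.39 and 7.15 in WT Cold (log2 fold change -1.35, SE 0.16, adjusted p = 0.00112, limma). Ciita had 2.5, 3.45 and 1.51 CPM in WT RT and 1.24, 1.42 and 1.32 in WT Cold. Its groups did not overlap either, but its log2 fold change of -0.73 (SE 0.30) was not called (adjusted p = 0.111, limma).

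Of 9 class II genes tested, 1 was called. H2-Eb1, a class II beta chain, was higher in the cold, with 94.2, 90.0 and 84.9 CPM in WT Cold and 76.1, 72.5 and 59.5 in WT RT (log2 fold change 0.46, SE 0.09, adjusted p = 0.00717, limma). The call was lost with all 9 libraries in 1 fit (log2 fold change 0.38, adjusted p = 0.172, limma). H2-Aa had 66.4, 57.2 and 43.3 CPM in WT RT and 37.0, 37.2 and 46.8 in WT Cold, and H2-Ab1 had 65.3, 64.1 and 43.4 and then 37.1, 36.7 and 49.5. Cd74 had 142, 143 and 99.7 CPM in WT RT and 88.9, 89.8 and 125 in WT Cold. In these 3 genes library C of WT Cold was the highest and library C of WT RT the lowest of its group, so the groups overlapped. Without WT Cold C, the log2 fold changes of H2-Aa, H2-Ab1, Cd74, H2-DMa and H2-DMb1 were called as well, all lower. H2-DMb1, a chain of the peptide exchange factor H2-DM, had a log2 fold change of -0.92 (adjusted p = 0.0517, limma, and 0.0132, DESeq2), with 7.35, 7.44 and 4.10 CPM in WT RT and 3.35, 2.15 and 3.82 in WT Cold. The other class II genes, H2-DMa, H2-DMb2, H2-Ea-ps and H2-Ob, had log2 fold changes from -0.49 to 0.61, and H2-Ke6 had 0.22.

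Other genes of these pathways, from lists of their own, are read against the 27.7% of all genes called, and in lists of 5 to 9 genes a share near it is no result about the list. Of 15 interferon gamma-inducible GTPases, 14 were lower, led by Gbp3 (log2 fold change -2.54) and Gbp5 (-2.30). Of 16 genes of the type I interferon response all 16 were lower, led by Ifit3 (-3.74) and Mx1 (-3.33). Of 9 genes of the interferon gamma receptor and its signal, 4 were lower, among them the transcription factor Irf1 (-0.45), and the receptor chain Ifngr1 was higher (0.43); Ifng itself was in no table. Loading partners outside the members had 4 lower and 1 higher of 8, with the peptide-trimming enzyme Erap1 (-0.58), the tapasin relative Tapbpl (-0.65) and the proteasome activators Psme1 (-0.45) and Psme2 (-0.59) lower and the chaperone Canx (0.31) higher. Of 6 class I-like molecules 3 were lower, led by Mr1 (-1.52) and Hfe (-0.76), and Procr (0.83) was higher. In the class II pathway the proteases Ctss (-1.28) and Lgmn (-0.80) were lower, 2 of 5 genes. Of 5 co-stimulatory molecules Cd40 (-1.38) and Cd86 (-1.02) were lower, and of 7 genes of the class II enhanceosome Rfx5 (-0.69) was lower and Nfyc (0.49) and Creb1 (0.31) were higher.

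Of the marker lists of immune cells, those of leukocytes, macrophages and monocytes had most genes called lower, against the 27.7% of all genes called. Most markers of dendritic, B, T and NK cells were not called. Called or not, log2 fold changes were negative for 6 of 9 dendritic, 2 of 7 B and all 6 T and NK cell markers. All 5 leukocyte markers were called lower, led by Ptprc (log2 fold change -1.83) and Cd52 (-1.69), and their summed level was 90.6 to 186 CPM in WT RT and 38.4 to 52.0 in WT Cold. Of 11 macrophage markers 7 were lower, led by Fcgr1 (-3.98) and Cd68 (-1.96), and Mertk (0.61) was higher, with sums of 464 to 729.9 CPM and 252 to 369. Of 5 monocyte markers 4 were lower, led by Ms4a4c (-4.88) and Ly6c2 (-4.53), with sums of 77 to 284 and 42.5 to 52.8 CPM. T and NK cell markers were called lower in 2 of 6, Nkg7 (-1.54) and Lck (-1.14), with sums of 6.96 to 11.0 and 4.31 to 5.15 CPM, and Cd8b1, Ncr1 and Klrb1c were in no table. B cell markers were called in 1 of 7, Ighm (-1.22), with sums of 18.8 to 28.6 and 11.5 to 15.3 CPM. Of 9 dendritic cell markers 0 were called, with sums of 35.9 to 47.5 and 28.1 to 59.3 CPM. Of 6 endothelial markers 2 were higher, Pecam1 (0.66) and Kdr (0.47), with sums of 539.8 to 595 CPM in WT RT and 616 to 753 in WT Cold. The part of these cells in the members' changes was not tested, and in bulk tissue fewer cells of a type and less RNA per cell cannot be told apart. Of 10 brown adipocyte markers 5 were higher, led by Ppargc1a (2.70) and Elovl3 (1.17), and Plin1 (-0.34) was lower. Skeletal muscle markers summed to 2262 to 2747 CPM in WT RT and 2143 to 3571 in WT Cold, with 1 of 10, Atp2a1 (0.78), called higher.

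The cold groups, which differ in their genotype label, were compared next. In GCN2 KO Cold vs WT Cold a few class I heavy chain genes differed. H2-T10, H2-T-ps, H2-K2 and H2-K1 were higher and H2-T22 was lower in libraries labelled GCN2 KO Cold. The main limma fit, on all libraries of these groups, called no processing, transactivator or class II gene. Of 37 members tested 5 were called, against 0.405% of all 16312 genes tested (0.178% higher and 0.227% lower). With CPM scaling, which shifts the median of all genes by -0.12 log2, the same 5 members were called, while the share of higher calls over all genes went from 43.9% to 17.5%. All 5 also had an absolute log2 fold change over 1, against 0.257% of all genes. H2-T10 and H2-T-ps were called in every alternative run.

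H2-T10 is known as a ligand of some gamma delta T cell receptors but is annotated here as a polymorphic pseudogene, and no protein was measured. It had 1.83, 1.49 and 2.33 CPM in WT Cold and 33.7, 29.5 and 35.4 in libraries labelled GCN2 KO Cold. That is an 18.8-fold difference, a log2 fold change of 4.23 (SE 0.19, adjusted p = 0.000323, limma). H2-T22, its near copy, had 75.5, 103 and 74.5 CPM in WT RT, 49.8, 43.3 and 38.6 in WT Cold and 16.4, 18.5 and 20.8 in libraries labelled GCN2 KO Cold (log2 fold change -1.12, SE 0.12, adjusted p = 0.0295, limma). H2-T10 and H2-T22 thus moved in opposite directions. Their sum was 51.7, 44.8 and 40.9 CPM in WT Cold and 50.2, 48.0 and 56.1 in libraries labelled GCN2 KO Cold, with overlapping libraries and a log2 ratio of the means of 0.17, and 79.3, 107 and 77.2 CPM in WT RT. H2-T10 took 3.54%, 3.33% and 5.68% of the reads of the pair in WT Cold, 4.80%, 4.25% and 3.40% in WT RT, and 67.3%, 61.4% and 63.0% in libraries labelled GCN2 KO Cold. The share was under 6% in every wild-type library and over 60% in each of the others. Whether this is a change in transcripts or in where near-identical reads were placed was not tested. H2-T-ps, a neighbouring pseudogene, shares no stretch of 150 bases with another gene but overlaps exons of BC023719, as H2-T10 does. It had 0.788, 1.27 and 0.558 CPM in WT RT, 0.587, 0.487 and 0.417 in WT Cold and 6.0, 5.81 and 6.28 in libraries labelled GCN2 KO Cold (log2 fold change 3.63, SE 0.21, adjusted p = 0.00167, limma).

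H2-K1 had 267, 321 and 348 CPM in WT Cold and 838, 912 and 749.8 in libraries labelled GCN2 KO Cold, a 2.91-fold difference (log2 fold change 1.54, SE 0.13, adjusted p = 0.00842, limma). The lowest of the latter was above the highest WT RT library, 607 CPM. H2-K2, the pseudogene beside it, had 3.52, 3.30 and 3.37 CPM in WT Cold, 13.9, 16.5 and 10.7 in libraries labelled GCN2 KO Cold and 4.24, 4.88 and 4.30 in WT RT (log2 fold change 2.10, SE 0.18, adjusted p = 0.00842, limma). Both were no longer called without GCN2 KO Cold B (adjusted p = 0.0581 and 0.0508, limma) or without WT Cold B (adjusted p = 0.0831 for each), and H2-K2 also without WT Cold A (0.0641); H2-T22 lost its call without any of these or without GCN2 KO Cold A or C (0.0501 to 0.181). Their directions held in all these fits. H2-D1 had 375, 408 and 437 CPM in WT Cold and 587, 636 and 501 in libraries labelled GCN2 KO Cold, with no overlap and a log2 fold change of 0.61 (SE 0.11), but was not called by limma (adjusted p = 0.0816) and was called by DESeq2 (adjusted p = 0.000483). H2-K1 and H2-D1 summed to 642, 729 and 784 CPM in WT Cold and 1425, 1548 and 1251 in libraries labelled GCN2 KO Cold.

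**Figure D4:**
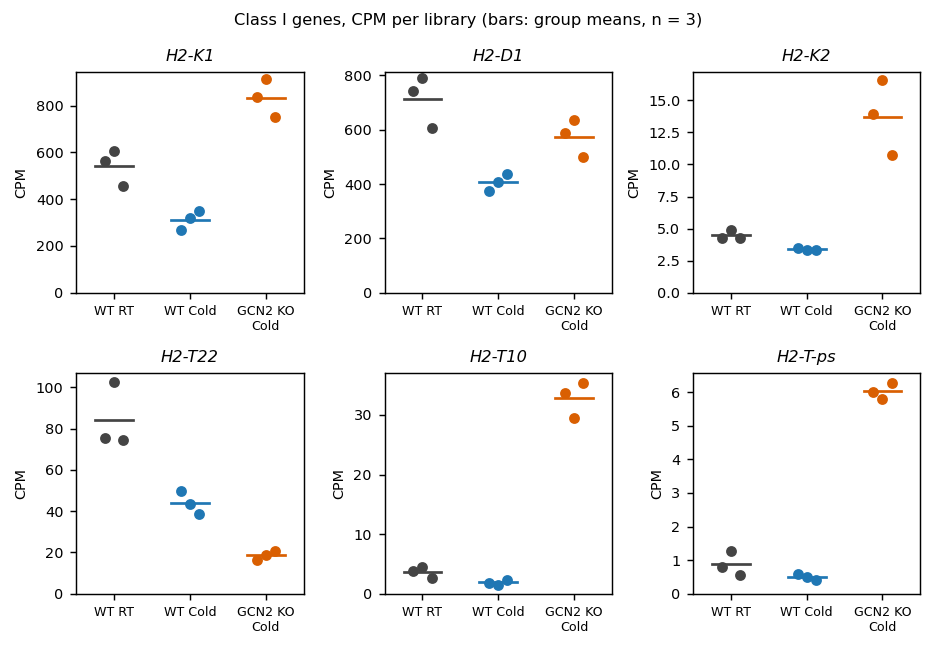
CPM per library (y axis, from 0) of 6 class I genes in WT RT, WT Cold and GCN2 KO Cold (x axis), with bars at the group means (n = 3). H2-K1, H2-K2, H2-T10 and H2-T-ps are highest in libraries labelled GCN2 KO Cold, H2-T22 is lowest there, and H2-D1 lies between WT Cold and WT RT at 574 CPM.

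The remaining heavy chains had differences in both directions and no call in the main limma fit. With all 9 libraries in 1 fit, limma called H2-Q4 and H2-T24 too. CPM of the remaining heavy chains are given for WT Cold first and then for libraries labelled GCN2 KO Cold. H2-Q4, at 29.4, 30.2 and 36.6 and then 53.8, 55.3 and 43.7, had a log2 fold change of 0.78 (adjusted p = 0.0685, limma, and 0.000127, DESeq2), and H2-T24, at 2.59, 3.34 and 3.33 CPM and 4.92, 7.23 and 5.62, had 1.04 (adjusted p = 0.1, limma, and 0.00415, DESeq2). H2-Q2 had 1.76, 2.85 and 1.49 CPM and 4.95, 2.71 and 4.88 (log2 fold change 1.14, adjusted p = 0.185, limma, and 0.0447, DESeq2). H2-Q10 had 127, 123 and 220.4 CPM and 40.3, 81.9 and 89.2 (log2 fold change -1.06, adjusted p = 0.217, limma), and H2-Q5 had 1.97, 2.26 and 2.12 CPM and 0.976, 1.25 and 0.85 (log2 fold change -0.92). In CPM, libraries of the 2 groups did not overlap for H2-Q4, H2-T24, H2-Q10, H2-Q5 and H2-T23 (log2 fold change -0.38, adjusted p = 0.35, limma). This is no result about these genes, because the share of all genes without overlap was not counted. The 7 H2-Q genes summed to 180, 183 and 287 CPM and 122, 167 and 158, and all 17 heavy chain genes to 909, 994 and 1159 CPM and 1644, 1818 and 1514, a sum carried mainly by H2-K1 and H2-D1.

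The 7 assembly and processing genes had log2 fold changes between -0.31 (Tapbp) and 0.22 (Psmb10), and none was called by limma, edgeR or DESeq2. B2m had 463, 578 and 469.8 CPM in libraries labelled GCN2 KO Cold, a log2 fold change of 0.22 (SE 0.13, adjusted p = 0.49, limma). Tap1 had 9.08, 8.27 and 6.95 CPM (log2 fold change -0.28, SE 0.19). Psmb8 had 14.9, 22 and 15.0 CPM (log2 fold change 0.15, SE 0.21), Psmb9 had 6.73, 8.55 and 5.88 (0.11, SE 0.17) and Nlrc5 had 5.50, 7.54 and 5.28 (0.03, SE 0.19). A missed threshold does not show that the groups were alike. Class II genes had log2 fold changes between -0.73 and 0.69, with 0 of 9 called. H2-Eb1 had the lowest of these, at 45.5, 38.5 and 70.8 CPM, all below the WT Cold libraries (adjusted p = 0.177, limma, and 0.0422, DESeq2). It was called by limma when GCN2 KO Cold C was left out. H2-Aa had 44.6, 60.2 and 32.0 CPM, H2-Ab1 had 25.0, 45.5 and 23.4, and Cd74 had 71.4, 104 and 60.9, each highest in library B. Of the remaining members, H2-M2 had a log2 fold change of 0.46 and H2-Ke6 of -0.57, neither called.

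Of the other pathway lists, limma called 0 genes in this comparison: 8 loading partners, 6 class I-like molecules, 5 genes of the class II pathway, 4 co-stimulatory molecules, 7 of the enhanceosome, 9 of the interferon gamma signal, 15 GTPases, 16 of the type I interferon response and 3 constitutive proteasome subunits. Erap1 had a log2 fold change of -0.15, Irf1 of -0.05, Psme1 of 0.15, Psme2 of 0.31 and Rfx5 of 0.09. Over the whole table, 2500 genes had an unadjusted p under 0.05, 15 members among them, and DESeq2 called 526 genes (3.22%) and 10 members. The cell type markers had 0 called in limma too. The summed leukocyte markers were 23.0 to 43.6 CPM in libraries labelled GCN2 KO Cold and 38.4 to 52.0 in WT Cold, and macrophage markers 190 to 271 and 252 to 369. Skeletal muscle markers did not overlap, at 265 to 1211 CPM against 2143 to 3571, with a median log2 fold change of -2.07 over the 10 genes. Endothelial markers did not overlap either, at 499 to 604 CPM against 616 to 753 in WT Cold, nor did brown adipocyte markers, at 30866 to 31416 against 26128 to 27937. Dendritic cell markers summed to 22.7 to 30.8 CPM in libraries labelled GCN2 KO Cold, B cell markers to 14.5 to 19.0, T and NK cell markers to 4.92 to 6.85 and monocyte markers to 29.3 to 57.2. The part of all these markers in the members' differences was not tested.

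The H2 region of chromosome 17, from H2-K2 to H2-M2 (33974659 to 37483552, 3.51 Mb, GRCm38), was used to set the members beside their neighbours. In GCN2 KO Cold vs WT Cold 5 of 31 members in the region were called (16.1%) and 1 of 101 other listed genes (0.99%), Ppp1r11, a phosphatase inhibitor gene, with a log2 fold change of 0.75 (SE 0.08, adjusted p = 0.0295, limma). Some uncalled neighbours, named after their values were seen, had differences as large as called members, among them Gm6034 (log2 fold change 2.58, adjusted p = 0.0725, limma) and Gm8909 (2.14, adjusted p = 0.106), and Hspa1a in the other direction (-2.16, adjusted p = 0.0653). The called members lay in 2 places, H2-K2 and H2-K1 at one end and H2-T22, H2-T-ps and H2-T10 about 2 Mb on. The class II genes other than Cd74, which is on another chromosome, and the processing genes Psmb8, Psmb9, Tap1 and Tap2 lie between them. In WT Cold vs WT RT, 17 of 30 members in the region were called (56.7%) and 30 of 104 neighbours (28.8%), the latter with Aif1 (log2 fold change -2.47) and Cdsn (-2.42) lowest and Btnl4 (2.43) and Hspa1a (1.51) highest. In GCN2 KO Cold vs WT RT the shares were 67.7% and 34.3%, with Cdsn (-3.09), Lst1 (-2.96), Btnl4 (2.28) and Gm6034 (2.99) at the ends.

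**Figure D5:**
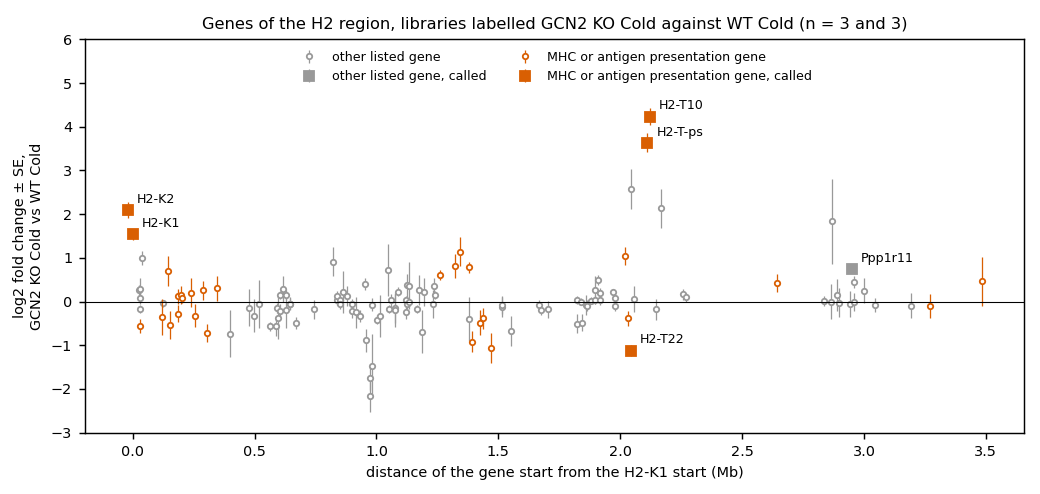
Log2 fold change with its standard error in GCN2 KO Cold vs WT Cold (y axis, limma) against the distance of each gene's start from that of H2-K1 in Mb (x axis), with members in orange, other listed genes in gray and squares for adjusted p under 0.05. The called members fall next to H2-K1 and about 2 Mb away, and Ppp1r11 is the called neighbour, at 0.75.

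Against WT RT, libraries labelled GCN2 KO Cold had heavy chains that were higher and lower, while the processing genes were all lower. This comparison shares its WT RT libraries with WT Cold vs WT RT and the libraries labelled GCN2 KO Cold with the previous comparison. Of 37 members tested 26 were called, 8 higher and 18 lower, against 34.2% of all 16560 genes (16.4% higher and 17.8% lower, and 34.4% with DESeq2), and 21 with an absolute log2 fold change over 1, against 10.6%. CPM scaling shifts the median of all genes by -0.19 log2 here and takes the share of higher calls from 48.0% to 23.6%, and 29 members were called with it. Among 17 heavy chains 7 were higher and 8 lower. H2-T10 (log2 fold change 3.39, SE 0.18), H2-T-ps (3.02, SE 0.28), H2-M9 (2.17, SE 0.39), H2-Q2 (2.01, SE 0.43), H2-K2 (1.79, SE 0.18), H2-Q1 (1.54, SE 0.39) and H2-K1 (0.83, SE 0.11) were the higher ones. H2-M9 had 3.25, 2.61 and 3.77 CPM in libraries labelled GCN2 KO Cold, and H2-Q1 had 13.4, 9.84 and 6.95, against 5.78, 4.94 and 1.94 in WT RT and 5.67, 7.99 and 4.76 in WT Cold. H2-Q2 had 4.95, 2.71 and 4.88 CPM against 1.84, 1.37 and 0.558 in WT RT, and its lowest library was above all of these. H2-Q10, H2-Q6, H2-T22 and H2-Q7 were lower by log2 fold changes of -1.98, -1.97, -1.97 and -1.96, and H2-Q5, H2-T23, H2-M3 and H2-T24 by -1.69, -1.54, -1.51 and -1.37. H2-Q5 had 2.59, 5.95 and 3.71 CPM in WT RT. In libraries labelled GCN2 KO Cold, H2-Q6 had 4.41, 8.93 and 5.69 CPM, H2-Q7 had 4.34, 7.27 and 6.43, H2-T23 had 17.4, 19.7 and 20.9, and H2-M3 had 1.52, 2.95 and 2.33. H2-D1 and H2-Q4 both had log2 fold changes of -0.11 with overlapping libraries.

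All 7 processing genes were lower, from Tap1 (log2 fold change -2.07, SE 0.16, adjusted p = 0.000158, limma) to Psmb10 (-0.43, SE 0.14, adjusted p = 0.0497, limma), and both transactivators, Nlrc5 (-1.32, SE 0.18) and Ciita (-1.05, SE 0.31). Tap2 had 21.3, 24.5 and 20.1 CPM, Tapbp had 58.5, 49.5 and 42.2, Psmb10 had 26.4, 23.9 and 20.8 and Ciita had 0.94, 1.04 and 0.924, each below every WT RT library. The calls of B2m and Psmb10 were lost in 4 of the 6 fits that left out a library, that of Ciita in 5 and that of H2-DMb2 in 3. Among class II genes H2-DMb1 was lower, with 2.60, 2.05 and 1.29 CPM against 7.35, 7.44 and 4.10 (log2 fold change -1.45, SE 0.31), and H2-DMb2, its near copy, was higher, with 2.03, 2.36 and 1.96 CPM against 1.54, 1.04 and 1.18 (0.95, SE 0.25). They share 4.71% of the stretches of 150 bases of H2-DMb1 and 4.14% of those of H2-DMb2. The other class II genes had log2 fold changes from -0.84 to 0.91 and no call by limma, H2-Eb2 with 0.33 among them. DESeq2 called H2-Ab1 (adjusted p = 0.022) and Cd74 (adjusted p = 0.0434), both lower, as did limma with CPM scaling or all 9 libraries in 1 fit. 

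The other lists are read against the 34.2% of all genes called, and the class I-like and enhanceosome lists were under it. Of 15 GTPases 14 were lower, led by Gbp3 (log2 fold change -2.71) and Gbp5 (-2.24), and of 16 genes of the type I response all 16, led by Ifit3 (-3.91) and Mx1 (-3.66). Of 9 genes of the interferon gamma signal 6 were lower, Irf8 (-0.66) and Irf1 (-0.49) among them, and Ifngr1 (0.28) was higher. Of 8 loading partners Erap1 (-0.72), Tapbpl (-0.59) and Lnpep were lower and Canx (0.39) was higher, while Psme1 (-0.30) and Psme2 (-0.28) were not called. Class I-like Mr1 (-1.83) was lower and the IgG receptor Fcgrt (0.37) higher, 2 of 6. Of 5 class II pathway genes 3 were lower, Ctss (-1.47) and Lgmn (-0.80) most, and of 5 co-stimulatory molecules 4, Cd80 (-1.46) and Cd86 (-1.17) most. Of 7 enhanceosome genes Rfx5 (-0.60) was lower and Nfyc (0.56) higher. All 3 constitutive proteasome subunits were higher, Psmb5 (0.49) and Psmb7 (0.47) most. The part of the marker lists in the members' differences was not tested. All 5 leukocyte markers were lower, led by Laptm5 (-2.09) and Cd52 (-2.07). So were 9 of 11 macrophage markers, led by Fcgr1 (-3.95) and Cd68 (-2.78), with Mertk (0.38) higher, and 4 of 5 monocyte markers, led by Ms4a4c (-4.64) and Ly6c2 (-3.93). The shares called in the other immune lists were no higher than that of all genes, with 3 of 9 dendritic cell markers lower, Itgax (-1.56) and Cd209a (-1.31) most, 1 of 7 B cell markers, Ighm (-0.60), and 1 of 7 T and NK cell markers, Lck (-1.13). Endothelial Tie1 (-0.38) and Tek (-0.30) were lower and Pecam1 (0.53) higher, 3 of 6. Of 10 brown adipocyte markers 7 were higher, led by Ppargc1a (2.77) and Elovl3 (1.89), and of 10 skeletal muscle markers 8 were lower, led by Myh1 (-2.07) and Cacna1s (-2.03).

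Over the 9 libraries, the genes whose log2(CPM + 1) followed H2-T10 most closely were H2-T-ps (Pearson r = 0.993), Gm3650 (0.975), Gchfr (0.974), H2-K2 (0.972) and Eif3j2 (0.968), of 16607 genes compared. The libraries form 2 clusters in H2-T10, the labelled GCN2 KO Cold libraries and the other 6, so these values describe that split and carry no test.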

How the data were processed

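RNA from brown adipose tissue in 9 samples, 3 per group, was sequenced as poly(A)-selected, unstranded libraries with paired reads of 150 bases. Per the study's methods and the submitters' processing notes, the authors trimmed reads with Trimmomatic 0.36, aligned them to the mouse genome (GRCm39) with STAR 2.5.2b, counted uniquely aligned reads in exons with featureCounts of Subread 1.5.2 and normalized them with DESeq2. The authors deposited 3 tables, 1 per comparison, whose signal values are read counts divided by size factors. Further columns with the authors' own fold changes and p-values were not used. Column names are library codes, which were assigned to groups by the tables they occur in. Dividing by the smallest step of each column gave whole reads for all values (tolerance 0.02 reads). These reads gave CPM levels, comparable across tables. They also gave the edgeR and DESeq2 alternatives.

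Within each table limma 3.58.1 (R 4.3.3) with a mean-variance trend was fitted to log2(value + 1) of every gene, so fold changes of low genes are understated. Labels call the replicates biological and name no animal, and the paper gives 3 mice per group, with both sexes in each. Each p-value rests on the gene's spread between these samples, moderated toward the trend over all genes. The title of 1 GCN2 KO Cold sample also carries WT, and its genotype field, GCN2 KO, was used. Alternatives were edgeR 4.0.16, DESeq2 1.42.0, pseudocounts of 0.5 and 8, a mean filter of 50, CPM and TMM scaling, no trend, all 9 libraries in 1 fit and leaving out each library. The scripts were tested on simulated data. Exon lengths, gene positions and shared stretches came from GENCODE M21 (GRCm38), since an annotation of the authors' build was not used here, and promoters from RefSeq. Values in every library are given for members called with an absolute log2 fold change over 1 in any comparison and for the main class I and class II genes. From each list up to 2 called genes per direction are named, with Irf1, Rfx5, Psme1, Psme2 and Erap1; 1 gene that this rule names is not reported here. Members and lists were chosen with earlier results of these data known. Sex per library was not in the labels.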

Additional observations from a re-analysis of the deposited data

How the results depend on the processing

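Of 52 member results called, 42 kept their call and direction under every alternative run (18 of 21 in WT Cold vs WT RT, 2 of 5 in GCN2 KO Cold vs WT Cold, 22 of 26 in GCN2 KO Cold vs WT RT) and 0 reversed. In WT Cold vs WT RT, 11 members were called with the fold threshold, and 19 to 26 with a library left out, 26 without WT Cold C. In GCN2 KO Cold vs WT Cold, 2 were called without the trend, 10 by DESeq2 and 7 with all 9 libraries in 1 fit. With a library left out, 2 to 5 were called (2 without GCN2 KO Cold B or WT Cold B, 3 without WT Cold A). Over all genes of that table limma called 66 and DESeq2 526. In GCN2 KO Cold vs WT RT the range with a library left out was 22 to 26. Why calls were lost was not tested; fits without a library rest on 5 libraries. Uncalled values changed sign in GCN2 KO Cold vs WT Cold with CPM scaling and with all 9 libraries in 1 fit, for Tap2 (-0.0369 and -0.0368), Psmb9 (-0.00148 and -0.00143) and Nlrc5 (-0.0860 in both). With a library left out they ranged from -0.000453 to 0.136 for Tap2, -0.0359 to 0.319 for Psmb8, -0.0318 to 0.232 for Psmb9, -0.130 to 0.126 for Nlrc5, -0.317 to 0.160 for H2-M3 and -0.776 to 0.132 for H2-DMa. They ranged from -0.114 to 0.490 for H2-DMb2 in WT Cold vs WT RT, and in GCN2 KO Cold vs WT RT from -0.337 to 0.121 for H2-Aa and -0.254 to 0.705 for H2-Eb2. Per kb of exon, the immunoproteasome share had means of 12.7% (WT RT), 6.02% (WT Cold) and 5.97% (GCN2 KO Cold). No paired analysis was possible because the columns carry no replicate numbers. Members under about 1 CPM, such as H2-Eb2, H2-M2 and H2-Ob, rest on few reads.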
